A study of Caenorhabditis elegans with 2 samples.

Results

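The regions described are the 280 peaks at ranks 21 to 300, by signal value, among 3641 thresholded peaks of XBP-1 on the chromatin of first-stage (L1) larvae of Caenorhabditis elegans. They were chosen by signal value alone, as lines 21 to 300 of the sorted thresholded list, from 1614.32 down to 494.30. The values are the authors', on a scale not stated in the sources used here, and served only to rank peaks within a list. The rank was the rule of choice and is not a finding. Just inside the upper end lay rpl-15 with K11H12.8 (rank 21, 1614.32), and just outside it manf-1 (rank 20, 1633.45). At the lower end, rank 300 (494.30) lay in no promoter window and rank 301 (494.26) lay at spas-1, so neither end marks a step in signal.

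The animals were hermaphrodites of strain OP506, genotype unc-119(tm4063) III; wgIs506, which carries an integrated transgene making XBP-1 with GFP and FLAG at its C-terminus. Whole larvae were taken 6 h after they had been synchronized by bleaching and starved as L1. Chromatin was immunoprecipitated with an anti-GFP antibody per the sample descriptions, while 1 label field names the antibody xbp-1. The 2 biological replicates form 1 group. Every peak therefore comes from 1 transgenic strain, in which the tagged protein is made from an insertion and the unc-119 mutation is shared by both replicates. The labels name a possible control that was not used here. It is not known here if the authors called their peaks against that control. No peak was compared with a control here, and how far accessible promoters would give peaks without XBP-1 was not tested. Whole animals were used, so the tissue in which a region was bound cannot be told apart.

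XBP-1 is a basic leucine zipper transcription factor of the unfolded protein response of the endoplasmic reticulum (ER). When unfolded proteins gather in the ER, the sensor kinase and RNase IRE-1 cuts an intron out of xbp-1 mRNA, and the spliced mRNA codes for the active factor. XBP-1 is known for raising the transcription of ER chaperones, of the glycoprotein folding cycle, of ER-associated degradation and of vesicle transport. In mammals it binds sites with an ACGT core, among them the unfolded protein response element, whose core is TGACGTG.

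Windows of 101 bp around the summits, that is 50 bp on either side, show the sequences on which the motif results below turn. All are read from the plus strand of WBcel235 (the same assembly as ce11), 5′ to 3′, from the RefSeq sequence, and capitals mark a copy of any of 6 searched motifs on either strand. The first 5 are among the strongest windows with TGACGTG, which reads CACGTCA where it lies on the minus strand. They are given for the peak at rank 33 in the non-coding gene linc-129 (chrIII:10818469-10818569), for pab-2 (chrX:13527597-13527697), Y25C1A.8 (chrII:3077077-3077177), nucb-1 (chrX:10197440-10197540) and the start region shared by dnj-20 and ZK1307.8 (chrII:9624254-9624354). In the Y25C1A.8 window the capitals join an overlapping CCACGT.
rank 33: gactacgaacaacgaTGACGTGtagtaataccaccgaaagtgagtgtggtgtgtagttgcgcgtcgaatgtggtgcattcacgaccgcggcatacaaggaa
pab-2: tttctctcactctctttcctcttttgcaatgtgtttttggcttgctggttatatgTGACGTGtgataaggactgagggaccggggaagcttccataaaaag
Y25C1A.8: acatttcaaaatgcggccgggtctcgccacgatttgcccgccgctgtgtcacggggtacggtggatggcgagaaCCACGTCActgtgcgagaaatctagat
nucb-1: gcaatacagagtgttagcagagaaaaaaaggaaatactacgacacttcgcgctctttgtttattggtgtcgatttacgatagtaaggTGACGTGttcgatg
dnj-20 and ZK1307.8: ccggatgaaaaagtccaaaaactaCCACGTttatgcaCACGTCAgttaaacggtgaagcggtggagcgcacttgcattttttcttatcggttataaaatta

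The next 4 windows hold CTGCGTCT, the commonest of the searched motifs at these summits, which reads AGACGCAG on the other strand. They lie at sec-61.G (chrV:10897311-10897411), between drr-2 and set-16 (chrIII:13643685-13643785), at efl-1 (chrV:16965805-16965905) and at vps-60 (chrV:8606421-8606521), where the cyclic AMP response element TGACGTCA lies beside it.
sec-61.G: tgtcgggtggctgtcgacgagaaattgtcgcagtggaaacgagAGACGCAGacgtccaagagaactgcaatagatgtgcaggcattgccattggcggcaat
drr-2 and set-16: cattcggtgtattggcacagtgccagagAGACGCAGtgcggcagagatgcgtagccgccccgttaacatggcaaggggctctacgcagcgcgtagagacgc
efl-1: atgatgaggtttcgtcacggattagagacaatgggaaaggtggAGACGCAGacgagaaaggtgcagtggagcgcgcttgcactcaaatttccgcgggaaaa
vps-60: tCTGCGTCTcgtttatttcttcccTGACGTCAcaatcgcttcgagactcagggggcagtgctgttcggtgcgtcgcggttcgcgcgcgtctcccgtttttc

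The E-box CACGTG is shown at epg-7 (chrX:7334515-7334615) and at drap-1 (chrV:9731164-9731264), where it overlaps a copy of CCACGT that a copy of CTGCGTCT follows with no gap, both on the other strand. The windows of rpl-15 (chrIV:654869-654969) and hsp-90 (chrV:14685723-14685823) stand for the 204 members that hold none of the 6 motifs.
epg-7: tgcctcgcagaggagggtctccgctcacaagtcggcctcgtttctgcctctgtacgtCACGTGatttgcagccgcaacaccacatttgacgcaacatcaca
drap-1: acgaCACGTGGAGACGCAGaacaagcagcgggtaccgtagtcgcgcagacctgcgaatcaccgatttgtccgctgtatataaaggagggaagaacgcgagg
rpl-15: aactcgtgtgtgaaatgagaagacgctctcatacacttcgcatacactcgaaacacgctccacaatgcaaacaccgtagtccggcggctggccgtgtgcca
hsp-90: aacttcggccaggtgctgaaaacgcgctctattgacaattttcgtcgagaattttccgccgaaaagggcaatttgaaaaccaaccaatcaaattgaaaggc

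Most of the 280 peaks stood just upstream of protein-coding genes. A promoter window reaches from 1000 bp upstream to 200 bp downstream of an annotated protein-coding transcript start, and 225 summits (80.4%, Wilson 95% interval 75.3 to 84.6) lay in 1 or more of them, against 65.8% of all 3641 peaks. The share was 100% for ranks 1 to 20, 77.5% for ranks 301 to 580 and 64.4% for ranks 301 to 3641. These ranges were not tested against each other, and intervals cover counting error over peaks only, since the lists hold no read totals and the depth is unknown. The 225 summits served 338 genes, 1.69% of 19973 nuclear protein-coding genes. Counts by family below can be set against that share. Of the summits in windows, 120 lay at 1 gene, 96 at 2 and 9 at 3, and drap-1 alone had 2 members.

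The summits gathered a short way before the start. Over the 225 in windows, the median position from the nearest transcript start was -182 bp (negative is upstream), with quartiles of -298 and -90 bp. In 158 of them (70.2%) the summit lay 50 to 400 bp upstream, and in 10 it lay within the gene. With summits outside windows included, the median was -182 bp for the 280 members and -196 bp for all 3641 peaks. In 94 of the 280 (33.6%) the summit lay upstream of genes on both strands, a divergent arrangement found for 20.02% of all peaks. At ranks 1 to 20 the share was 30% and at ranks 301 to 580 29.3%, so the arrangement is not particular to this range. The starts of such pairs were a median of 469 bp apart (quartiles 356.5 and 772), so 1 summit cannot be given to either gene of a pair.

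**Figure D1:**
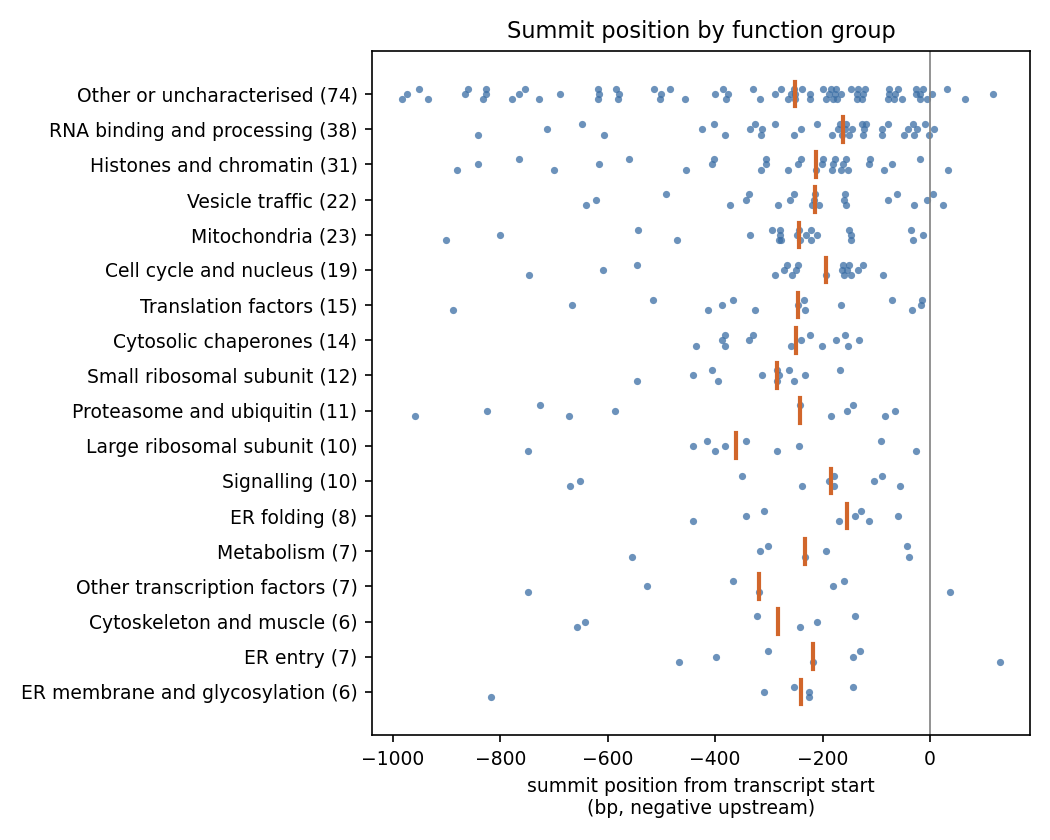
Each point is 1 gene whose promoter window holds a summit of ranks 21 to 300, placed by the distance of the summit from the gene's nearest transcript start (x axis, bp, negative upstream) and by function group (y axis, number of genes in brackets). The vertical bars are group medians, from -362 bp for large ribosomal subunit genes to -154 bp for ER folding genes. Groups with under 6 members are not drawn.

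Both replicates held every one of these peaks, most of them at a like rank. Each of the 280 overlapped a relaxed region in each replicate, and the region with the nearest summit ranked from 18 to 387 in replicate 1 and from 21 to 349 in replicate 2. Among the first 300 regions were 268 members in replicate 1, 269 in replicate 2 and 257 in both. The 2 ranks of a member differed by a median factor of 1.16, and by at most 1.5 in 251 members. The 2 replicate summits lay a median of 7 bp apart, within 30 bp for 271 members, with the largest distance, 112 bp, at the bromodomain gene bet-2 (rank 258). The thresholded list was made from these replicates, so this likeness describes the list and is no independent check.

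The members with the most unequal ranks lay outside promoters. The factor exceeded 2 in 4 members, all ranked higher in replicate 1. Rank 147 in an intron of ppfr-1, a regulatory subunit gene of protein phosphatase 4, stood at 106 in replicate 1 and 297 in replicate 2, and rank 61 in the same gene at 51 and 114. The others, ranks 181 (134 and 280) and 100 (85 and 173), lay on chromosome X, and the fifth most unequal member, rank 212 (289 and 152), lay there too but ranked higher in replicate 2. Outside promoter windows 34 members ranked higher in replicate 1 and 21 in replicate 2, against 100 and 118 in promoter windows.

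**Figure D2:**
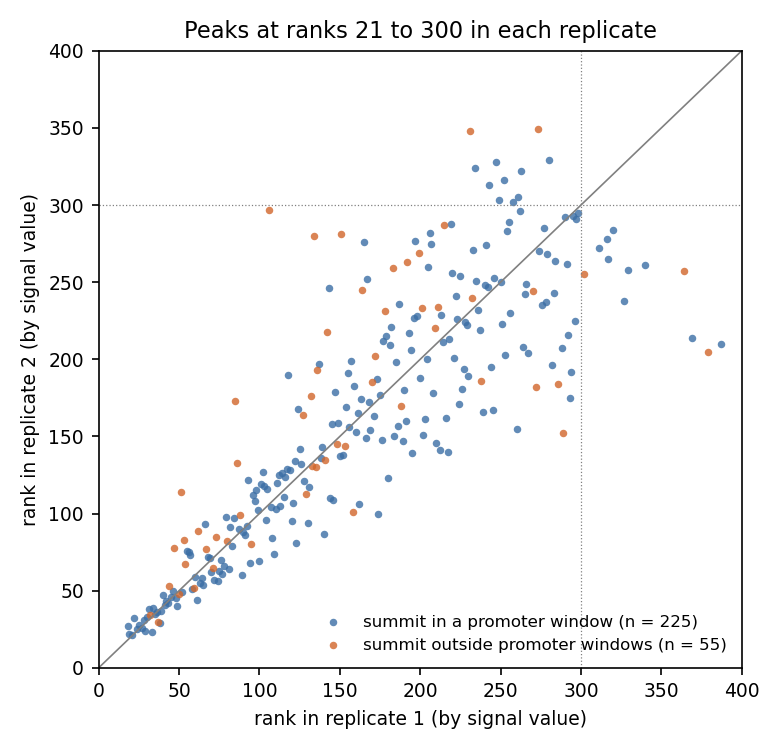
Rank of each of the 280 peaks in replicate 1 (x axis) and replicate 2 (y axis), by signal value within each replicate's list, for summits in promoter windows (225, blue) and outside them (55, orange). The line marks equal ranks and the dotted lines rank 300; 257 points lie within rank 300 of both replicates, and the widest departure, 106 against 297, is orange.

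The ER folding group, of genes that fold glycoproteins and other clients inside the ER, had 7 members, from rank 22 to rank 88 (median 53). Ranks by group are given as a description, since rank chose the members. uggt-1 (WBGene00018604) codes for the glucosyltransferase that marks unfolded glycoproteins for another round of folding. Its peak, chrX:7500988-7501343, had rank 22, rank 21 in each replicate, and a summit 169 bp upstream of the start. aagr-3 codes for the alpha subunit of glucosidase II, which trims the glucose that UGGT adds, and ZK1307.8 for its beta subunit. aagr-3 shared rank 37 (35 in each replicate) with drap-1 at -441 bp, and ZK1307.8 shared rank 80 (83 and 79) with dnj-20 at -309 bp, so both subunits of the enzyme had a member in their window.

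The rest of that group was made of co-chaperones and redox proteins. dnj-28, a J-domain co-chaperone gene, had rank 26 (24 and 25 in replicates 1 and 2), with the summit 60 bp upstream. dnj-20, the relative of the mammalian ER co-chaperone ERdj3, lay 128 bp downstream of its summit. Y76B12C.3, the selenoprotein F gene, whose mammalian counterpart binds UGGT, had rank 53 (58 and 51), and pdi-1, a protein disulfide isomerase, rank 88 (91 and 86). R12E2.13, a MIR-domain gene, shared rank 66 (68 and 72) with suco-1. Of the 7 members, 3 held TGACGTG (dnj-28, dnj-20 with ZK1307.8, and pdi-1) and 1 TGACGTCA (R12E2.13).

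Sensing genes had 1 member and degradation genes 2. How many such genes are annotated was not counted, so these numbers cannot be read as high or low. pek-1, the ER kinase that slows translation under stress, was near the lower end at rank 279, with rank 262 in replicate 1 and 296 in replicate 2 and a summit at -182 bp. cup-2, the derlin gene of the channel that removes misfolded proteins from the ER, had rank 39 (39 and 37), with its summit at -610 bp and that of tag-353, which shares the peak, at -277 bp. ufd-3, a cofactor gene of the CDC-48 ATPase, had rank 280 (252 and 316).

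All 3 Sec61 genes, which code for the channel by which proteins enter the ER, had a member in their window. The gamma subunit gene sec-61.G led at rank 44 (49 and 40), with its start 218 bp from the summit. The beta gene sec-61.B shared rank 130 (162 and 106) with trap-3, of the translocon-associated complex, and the alpha gene sec-61.A shared rank 270 (274 and 270) with rps-18, its summit 130 bp inside the gene. Later steps of entry were represented by spcs-2 of the signal peptidase at rank 113 and dad-1 of the oligosaccharyl transferase at rank 156. Of the 4 translocon-associated genes trap-3 was the one with a member, and the other 3 had peaks below rank 300.

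The ER membrane and glycosylation group had 6 members, which were placed there by product name. serp-1.1, a stress-associated ER protein gene, had rank 77 (89 and 60). suco-1, a SUN-domain gene, shared rank 66 with R12E2.13, and nra-2, the nicalin gene, rank 114 with lin-53. mans-3, an alpha-mannosidase gene, had rank 195 and dpm-3, of dolichol-phosphate mannose synthesis, rank 219. F32D8.13, a phosphomevalonate kinase gene, shared rank 44 with sec-61.G with the summit at -818 bp. Its product name gives neither the ER membrane nor glycosylation, so its place in this group and among the secretory genes counted below is uncertain.

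Vesicle traffic genes had 22 members, from rank 55 to rank 265 (median 217). For export from the ER there were sec-24.1 of the COPII coat (rank 210, 227 and 194 in replicates 1 and 2), its GTPase sar-1 (rank 254, 296 and 225) and the cargo receptor gene tmed-10 (rank 179, 212 and 141). sly-1, a regulator of membrane fusion, had rank 146, eas-1, a Golgi transport gene, rank 127, and the retrieval receptor gene rer-1 rank 246.

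Later steps were represented as well. The strongest of the group was nucb-1 (rank 55, 65 and 54), a nucleobindin gene. Clathrin adaptor subunits numbered 3 of 12 annotated, or 25% (dpy-23, apb-1 and aps-1). ESCRT and vacuolar sorting genes numbered 4 of 31 (12.9%), led by vps-60 at rank 90 (109 and 74). TGACGTG lay at nucb-1, eas-1 and sar-1. Together, the 6 secretory groups (folding, sensing, degradation, entry, membrane and glycosylation, and traffic) took 42 of the 225 members in promoter windows (18.7%), with 46 genes. This share was not computed over all genes or all peaks, so it cannot be read as high or low.

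Protein synthesis genes, those of cytosolic and mitochondrial ribosomes and of translation factors, had 38 members (16.9%), with 40 genes. That share, too, was not computed over all genes or peaks. The small ribosomal subunit had a member at 12 of 32 genes and the large at 10 of 49, where 2 more had peaks among ranks 1 to 20. Their values were spread over the whole range: rpl-15 had rank 21 (19 and 22 in the replicates), rpl-35 rank 23 (18 and 27), rps-19 rank 41 (40 and 47), rps-1 rank 42 (43 and 42) and rps-26 rank 299 (280 and 329). Of the small subunit genes 11 shared the member with another gene, and of the large subunit genes 7. The 1 member at rank 221 served rps-14, rpl-36 and ndab-2.

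Translation factor genes had 15 members. Of 6 elongation factor genes 5 had one: eef-1A.1 (rank 99), eef-2 (rank 122), eef-1G (rank 158), eef-1A.2 (rank 199) and eef-1B.1 (rank 291). Replicates differed most at eef-1B.1, which stood at 369 in replicate 1 and 214 in replicate 2. iff-2, an eIF5A gene, led the group at rank 31 (30 and 33), followed by the poly(A)-binding protein gene pab-2 at rank 40 (41 in each), the translational repressor gene ifet-1 at rank 42, larp-1 at rank 58 and drr-2 at rank 69. Both genes of the nascent polypeptide-associated complex, which meets new chains at the ribosome, had a member: icd-2 at rank 120 and icd-1 at rank 233. Of 33 initiation factor genes by name 3 had one (9.09%), and of 32 aminoacyl-tRNA synthetase genes 0, against 1.69% of all protein-coding genes; 16 of the synthetase genes had a peak below rank 300.

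**Figure D3:**
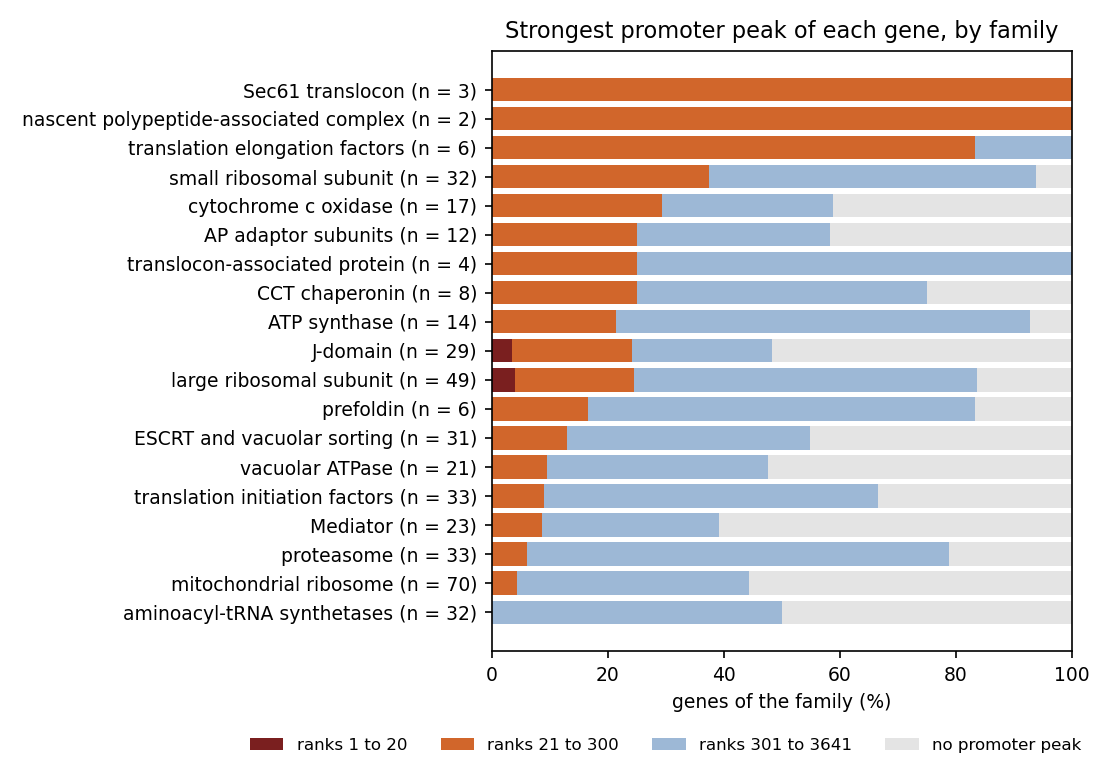
Share of the annotated genes of each family (x axis, %; y axis, number of genes in brackets) by the rank of the strongest peak in the gene's promoter window: ranks 1 to 20, ranks 21 to 300, ranks 301 to 3641, or no promoter peak. Sec61 and the nascent polypeptide-associated complex lie wholly within ranks 21 to 300, elongation factors to 83.3%, and aminoacyl-tRNA synthetases not at all.

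The cytosolic chaperone group, set by a list of gene names, had 14 members. hsp-90 (WBGene00000915) had rank 28 (27 and 26), a peak shared with C47E8.4, and hsp-1, the constitutive Hsp70 gene, rank 60 (57 and 73). The Hsp70 partners bag-1 (rank 79, 78 and 66), hsp-110 (rank 143, 139 and 143) and dnj-13 (rank 134) followed. The chaperonin CCT, which folds actin and tubulin, had members at 2 of 8 subunit genes (cct-1 at rank 72 and cct-8 at rank 102), and prefoldin, which hands it clients, at 1 of 6 (pfd-1, rank 63). The group ended with the prolyl isomerase genes fkb-1 (rank 226), cyn-3 (rank 296) and cyn-10 (rank 298). They were listed by name, and the part of the cell in which their proteins act was not checked here.

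Proteasome and ubiquitin genes had 11 members, most of them on the ubiquitin side. Of 33 proteasome genes 2 had a member (6.06%, against 1.69% of all protein-coding genes). The 2 were rpn-3 (rank 143, shared with hsp-110) and rpt-2 (rank 265, shared with aps-1), while 24 had weaker peaks. The ubiquitin ligase genes wwp-1 and eel-1 had ranks 117 and 121, the latter at 144 and 110 in the replicates. F-box genes, which code for substrate adaptors of ubiquitin ligases, had 5: fbxa-90 (rank 70, shared with efl-1), fbxl-2 (106), fbxb-85 (111, shared with hex-3), T28B11.1 (115) and F54D5.9 (134, shared with dnj-13). Annotated F-box genes were not counted here, so these 5 cannot be read as many or few.

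Mitochondrial genes had 21 members, among them many at genes of the respiratory chain. Cytochrome c oxidase had 5 of 17 genes: cox-5A at rank 34 (38 and 29), cox-5B at rank 105, F36A2.7 (130 and 94 in the replicates), cox-6B at rank 170 and F29B9.11 at rank 202. ATP synthase had 3 of 14 (asb-2 at rank 125, atp-1 at rank 151 and asg-2 at rank 237). The carriers F01G4.6 (phosphate, rank 63) and ant-1.1 (ADP and ATP, rank 172), the copper assembly factor gene sco-1 (rank 87), the GrpE gene C34C12.8 (rank 86) and the import receptor gene tomm-20 (rank 241) were also among them. Of 70 mitochondrial ribosome genes 3 had a member (4.29%), against 1.69% of all protein-coding genes.

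Genes that act in the nucleus or on RNA also had members. RNA binding and processing, chromatin, and cell cycle groups together took 78 members (34.7% of those in promoter windows) with 87 genes. These groups are broad, and 28 of the 38 RNA genes were placed in them by product name. Function was assigned to member genes alone, so the shares of the secretory, protein synthesis and nuclear groups have no counterpart over all genes or peaks and cannot be read as high or low. Among RNA genes were C47E8.4 (rank 28), nhl-2 (rank 35, 31 and 38), tos-1 (rank 36, 34 and 39), the integrator subunit gene ints-4 (rank 59), ntl-11 of the CCR4-NOT deadenylase (rank 82), the splicing helicase gene mog-4 (rank 150) and fib-1, fibrillarin of the nucleolus (rank 209).

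Chromatin genes had 31 members. lsy-12, a histone acetyltransferase gene, had rank 29 (33 and 23), with its summit 560 bp upstream. drap-1, a histone-fold transcription regulator, had ranks 37 (35 in each replicate) and 83 (87 and 90), at -153 and -156 bp from different transcript starts, the summits 1261 bp apart. his-37, a histone H4 gene, had rank 38 (36 in each), though H4 genes have near-identical copies, so where reads belong is uncertain. The Polycomb-like gene sor-1 (rank 43), set-16 of the MLL type (rank 69), htz-1, the H2A.Z gene (rank 76), cbp-1, the CBP acetyltransferase gene (rank 91), and lin-35, the retinoblastoma gene (rank 240), were also in the group. Of 81 histone genes 2 had a member (2.47%), near the 1.69% of all protein-coding genes.

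Cell cycle genes had 18 members, and 16 of their 19 genes shared the peak with another gene. hsr-9 and ska-3 shared ranks 41 and 48 with rps-19 and rps-12, wapl-1 shared rank 76 with htz-1, and rfc-4 and clsp-1 shared ranks 99 and 122 with eef-1A.1 and eef-2. pcn-1, the replication clamp gene PCNA, had rank 112 (93 and 122) alone. Among other transcription factor genes lin-54 (rank 45, shared with rpl-12), efl-1, an E2F gene (rank 70), ztf-7 (rank 81), W06H8.6 (rank 173) and lin-9 (rank 180) were the 5 strongest. Of the bZIP genes zip-4 (rank 286, 263 and 322) and Y17G7B.20 (rank 285) were members.

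Smaller groups completed the list. Signalling had 10 members, led by the dishevelled gene mig-5 (rank 72, shared with cct-1) and the G protein alpha gene egl-30 (rank 73). The lysosome and autophagy group had 4: epg-7 (rank 62, 55 and 76), lgg-2 (rank 260) and the proton pump genes vha-12 (rank 216) and vha-8 (rank 277). Metabolic genes had 7, among them ndk-1 (rank 101) and tre-1 (rank 156), and lipid genes 3, among them cept-2 (rank 267) and hmgs-1 of sterol precursor synthesis (rank 272). In large families a member lay at 1 of 156 cuticle collagen genes (0.641%; col-38, sharing its peak with rpl-5), 1 of 1215 serpentine receptor genes (0.0823%) and 1 of 269 nuclear hormone receptor genes by name (0.372%), against 1.69% of all protein-coding genes. Genes in no group, or uncharacterised, numbered 74 at 64 members, the strongest being K11D12.14 with pqn-51 (rank 24), F41B4.3 (rank 25), supr-1 (rank 26), egg-5 (rank 27) and F02E9.5 (rank 30).

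For the 55 members outside promoter windows, distance from gene starts follows from how they were chosen. Their summits lay a median of 2279 bp from the nearest protein-coding start, at most 15202 bp. Introns held 19, untranslated exons 3, a coding exon 1, and intergenic sequence or non-coding genes 32. Chromosome X held 19 of the 55. On X 29 of 48 members (60.4%, Wilson 95% interval 46.3 to 72.98) lay in promoter windows, against 196 of 232 (84.5%, interval 79.3 to 88.6) on the autosomes. The same shares over all peaks were 53.8% and 68.4%, lower on X there as well; the difference was not tested.

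The 5 strongest of them lay in or beside named genes. Rank 32 (chrI:9381023-9381997, ranks 32 and 34 in the replicates) lay in an intron of ppfr-1, which also held ranks 61 and 147. Rank 33 (37 and 30), with TGACGTG, lay in linc-129, at -1669 bp from sca-1, the gene of the calcium pump that fills the ER. Rank 47 (44 and 53) lay in a 5′ untranslated exon of C34C12.2, rank 49 (50 and 48) at -1987 bp from hif-1, the hypoxia factor gene, and rank 52 (59 and 52) in an intron of mom-1. In pqn-41 introns held ranks 213, 232 and 283, and rank 211 lay in an intron of pdi-2, 867 bp from the peak at rank 6 at that gene's promoter, with a further TGACGTG. Members wider than 400 bp numbered 40, and 21 of these lay outside promoter windows.

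A few regions also stood at genes of small nuclear RNAs. Of the 280 summits, 8 (2.86%) lay within 150 bp upstream of such a gene, at 23 to 59 bp, against 0.522% (19) of all peaks. They lay at sls-2.4 (rank 27, 38 bp), sls-2.1 (rank 50, 40 bp), sls-2.2 (rank 85, 33 bp), sls-2.8 (rank 157, 44 bp), F38E11.11 (rank 154), R07E5.16 (rank 178), sup-6 (rank 222) and T11F9.15 (rank 275). The sls-2 genes code for spliced leader RNA, which is joined to the start of many worm mRNAs. In 5 of the 8 a protein-coding window held the same summit, such as egg-5 at -579 bp for rank 27. Copies of these genes are alike in sequence, so where their reads belong is uncertain, and the shares were not tested against each other. Small nucleolar RNA genes had 5 such members (1.79%, all peaks 2.11%) and transfer RNA genes 1 (0.357%, all peaks 4.15%).

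Some members had a close neighbour in the thresholded list. In 17 pairs with at least 1 member the summits were 199 to 223 bp apart, and 1 pair of them (ranks 61 and 147, 203 bp) held 2 members. The nearest pairs were ranks 56 and 318 and ranks 197 and 2932, both 199 bp apart, in regions that overlap. Whether such pairs are separate sites was not tested.

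CTGCGTCT was the motif most often found at the summits. It lay in 38 of 280 windows (13.6%, Wilson 95% interval 10.0 to 18.1), against 1 (0.357%) of the flanking windows centred 500 bp away at lower coordinates. The adjusted p was 8.73e-11 by a two-sided exact McNemar test with Benjamini-Hochberg adjustment over the 6 motifs, and 37 members had it at the summit alone and 0 in the flank alone. The 41 copies lay a median of 17.5 bp from the summit, 30 of them within 25 bp. The word was in 371 of the 3341 summit windows at ranks 301 to 3641, in 1.32% of windows centred 182 bp upstream of the 19973 protein-coding genes and in 0.521% of 992797 windows tiling the genome. It was found in 28 of the 225 members in promoter windows and in 10 of the 55 outside them. The list of 6 motifs was drawn up with earlier results of these data known, so the p-values are no independent evidence for a word.

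TGACGTG, the unfolded protein response core, lay in 16 windows (5.71%, interval 3.55 to 9.08) against 2 flanks (0.714%; adjusted p = 0.00394, exact McNemar). It was in 4 of the 20 windows at ranks 1 to 20, 3.14% at ranks 301 to 3641, 0.946% of promoter windows and 0.768% of the genome. In windows of 25 bp on either side it was in 6 summits against 1 flank (adjusted p = 0.250, exact McNemar). Besides the ER folding and traffic genes above, it lay at pab-2, Y25C1A.8, ntl-11, T28F4.4, T28B11.1, C36E6.2 and Y38A10A.7, and at ranks 33, 71 and 211 outside promoter windows.

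The words CACGTG and CCACGT were close to it in number. CACGTG lay in 17 windows (6.07%) against 3 flanks (adjusted p = 0.00515, exact McNemar) and CCACGT in 21 (7.50%) against 7 (adjusted p = 0.0188, exact McNemar). Over all 3641 peaks CACGTG lay in 5.47% of summit windows and CCACGT in 5.93%. At ranks 301 to 580 the shares were 8.57% and 5.71%, so neither word is particular to this range. Both words also lie in CCACGTG, and their copies overlapped in 9 members. Neither call held in windows of 25 bp on either side (adjusted p = 0.172 and 0.516, exact McNemar). CACGTG lost it with flanks 300 bp away (0.0621), and CCACGT in windows of 100 bp (0.130) and at the summits of replicate 1 alone (0.0784). The strongest promoter members with CACGTG were F41B4.3 (rank 25), epg-7, scpr-1 with gpap-1 (rank 68), drap-1 and pdi-1. Those with CCACGT were uggt-1, Y25C1A.8, cwf-19L1 (rank 51), Y76B12C.3 and dnj-20. Outside promoter windows the strongest were rank 32, which held both words, rank 47 for CACGTG and rank 67 for CCACGT.

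The remaining motifs did not pass. TGACGTCA lay in 4 windows against 2 flanks (adjusted p = 0.688, exact McNemar), at F02E9.5, R12E2.13 with suco-1, vps-60, and ipla-6 with mif-4. GAGAGAGA lay in 8 (2.86%) against 3 (adjusted p = 0.272, exact McNemar), and passed in windows of 100 bp (17 against 3, adjusted p = 0.00262). Its share at ranks 301 to 3641 was 6.97%. In all 76 members (27.1%) held at least 1 of the 6 motifs and 204 none. Summit windows were 50.5% G+C and flanks 37.5%, and composition was not matched, so its part in these differences was not tested.

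**Figure D4:**
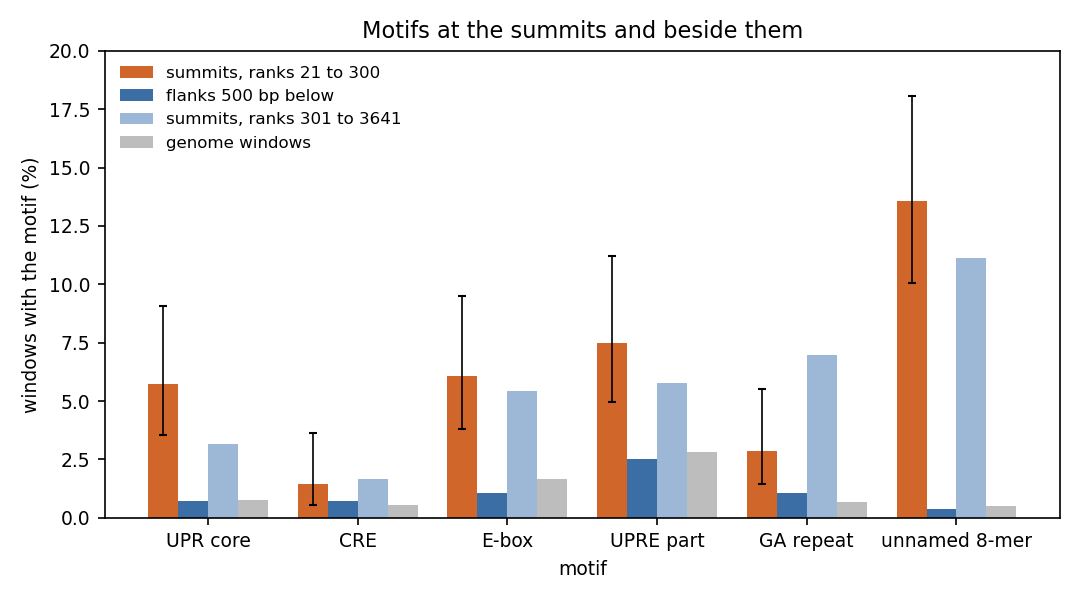
Share of windows of 101 bp (y axis, %) with each motif (x axis: UPR core TGACGTG, CRE TGACGTCA, E-box CACGTG, UPRE part CCACGT, GA repeat GAGAGAGA, unnamed 8-mer CTGCGTCT) at the summits of ranks 21 to 300 with Wilson 95% intervals, in flanks centred 500 bp away at lower coordinates, at summits of ranks 301 to 3641 and in windows tiling the genome. CTGCGTCT stands highest at 13.6% of summits against 0.357% of flanks, while GAGAGAGA stands at 6.97% at ranks 301 to 3641 and at 2.86% at ranks 21 to 300.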

How the data were processed

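Peak lists on build ce11 were used, and lists on ce10 were not used here. Per the deposited file lists, the authors made relaxed regions for each replicate and for the pooled reads, and from these a list thresholded by irreproducible discovery rate. Which aligner and peak caller made them is not given in the sources used here. The deposited signal column is the caller's own signal value, of unstated scale. The deposited −log10 q column (q-value) stood at its shared top of 3.7915 for all 280 members, so it was not used to rank. Depth is unknown, because the lists used here hold no read totals.

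Peaks were sorted by signal (ties by chromosome and start). Summits were assigned with the Ensembl WBcel235 annotation, release 115, and sequence came from RefSeq (WBcel235). A member's rank in a replicate is that of the overlapping region (at least 1 bp) with the nearest summit. Function groups used gene-name lists for 149 of the 339 member and gene pairs and RefSeq product names for 118, read after the member genes were known. The members, lists and motifs were chosen with earlier results of these data known. Motifs were counted on both strands within 50 bp of the summit and in flanks 500 bp away, and compared by a two-sided exact McNemar test with Benjamini-Hochberg adjustment over 6 motifs (threshold 0.05). Members are regions of 1 experiment and not replicates. Intervals are 95% Wilson intervals. Named genes are those at ranks 21 to 40, up to 8 of the strongest per group, those at the ends of the range, those with the most unequal replicate ranks, the strongest outside promoters, those with motifs and the nearest pairs, with other family members named to account for a count after their values were seen. Python 3.11.15, scipy 1.17.1 and numpy 2.4.6 were used, and scripts were tested on simulated data. Alternatives were other promoter windows, nearest or outermost starts, ranks 21 to 150, other overlap rules, other motif windows and flanks, and each replicate left out. For 1 member gene no result is reported here.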

Additional observations from a re-analysis of the deposited data

How the results depend on the processing

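Samples could not be paired, because both replicates belong to 1 group. The motif tests paired each summit window with the flank of the same member. With ranks 21 to 150 the members in promoter windows numbered 102 and their genes 148, as fewer members enter. With other windows the members numbered 201 (500 bp) and 242 (2000 bp), with 276 and 426 genes, or 273 genes with the nearest start alone. Ranks 21 to 300 of a single replicate's own list are another set of regions. Of these, 223 to 226 lay in promoter windows, with 339 to 340 genes. Over all 280 members the median summit position, -182 bp, was -177 bp from outermost starts. With the summits of 1 replicate alone it was -185 to -183 bp. The count in the first 300 of both replicates was 253 to 257 under 3 other overlap rules, 1 of them, the region with most shared bases, chosen after seeing the data. In percentage points of summit minus flank windows, windows of 25 bp gave 1.79 for TGACGTG, 2.86 for CACGTG and 1.43 for CCACGT, none of which passed. Flanks 300 bp away gave 3.57 for CACGTG, and windows of 100 bp 3.93 for CCACGT, which did not pass, and 5 for GAGAGAGA, which passed. With the same 280 members at the summits of 1 replicate alone, CCACGT gave 3.93 to 5.36, and the lower value, from replicate 1, did not pass. Such runs moved the summits only, and left neither replicate out of the choice of members. The cause of these changes was not tested. CTGCGTCT passed under each alternative run, at 10.0 to 15.7 points. Unknown depth, peak lists without reads and a control not used here limit every statement.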
